A study of Drosophila eugracilis and Drosophila pseudoobscura and Drosophila bifasciata with 4 samples.

Results

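The regions described here were 100-kb windows of the Drosophila bifasciata genome from which the ovary polyA library held almost no uniquely mapped read. They were taken on the 5 sequences of the assembly UCBerk_Dbif_1.0 whose names begin with CM. Each sequence was read from position 1 up to its furthest aligned base, and each alignment line, which is 1 mate of a read pair, was counted in the window of its 5′ end on the RNA strand. A window was a member, called silent below, when it held under 15 lines. That limit corresponds to 1.07 lines per 1000000 genome-unique mappers (CPM). By this rule 153 of 1847 windows were silent, which is 8.28% of them (exact Clopper-Pearson 95% interval 7.07% to 9.64%) and a total of 15.1 Mb out of 184 Mb. Over all sequences of the 3 polyA libraries of the series, the same window size gave 5407 windows. Since the line count itself chose the windows, their low level is a description and was not tested.

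The series examined ovary transcripts in 3 Drosophila species that lack the gene yb, in a study of how piRNAs are made, the class of small RNA that directs PIWI proteins to transposon transcripts. The D. bifasciata library came from wild type females of the strain labelled Jozankei, Hokaidou, on standard food. The polyA libraries of D. pseudoobscura (strain MV2-25) and D. eugracilis (strain SHL12), also wild type females on standard food, are used once for comparison. Flies of all groups were given as 2 to 7 days old and ovaries as dissected at 3 to 7 days. The number of ovaries pooled was not given in the sources used here. The methods give stock identifiers that are not the strain names of the labels. The sample's description field gives the species as D. eugracilis, whereas its title and organism field give D. bifasciata. The title was used, and the CM sequence names belong to the D. bifasciata assembly. No gene names were used for D. bifasciata, so the labelled tissue could not be set against marker genes and regions are named by position. Each group had 1 library, so no value has a biological replicate. All intervals cover counting error only, and the mates of a pair and PCR copies are not independent molecules.

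In Drosophila genomes, most genes lie in euchromatic chromosome arms, where introns are usually short. Within the arms, genes used in 1 tissue only, such as the testis, often lie in clusters that are not transcribed elsewhere. Pericentromeric heterochromatin is poor in genes and rich in transposons and other repeats, and the genes it does hold often have very long introns. A polyA library of whole ovaries reads stable polyadenylated RNA, so fewer cells with a transcript and less RNA per cell cannot be told apart. Because only uniquely mapped reads were deposited, repeated sequence and assembly gaps also appear as places without lines, and their part in the silent windows was not tested.

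The library held 13983030 lines on 157 sequences, and 97.2% of them (13595555) fell on the 5 CM sequences. The silent windows together held 989 lines from 554 read pairs, or 0.00707% of the library. The middle 50% of silent windows held 3 to 10 lines with a median of 6, which is 0.429 CPM. Other windows had a median of 2296 lines, or 164 CPM. In 11 silent windows no line was seen, which allows a level of up to 0.215 CPM (3 lines) with lines taken as independent, and more by read pairs. A further 50 windows held 1 to 4 lines, 48 held 5 to 9 and 44 held 10 to 14. No silent window was supported by more than 10 read pairs, and the median was 3 pairs.

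**Figure D1:**
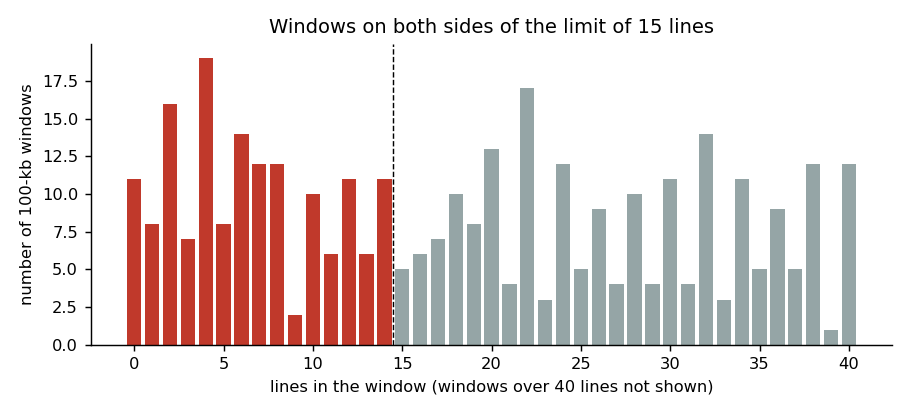
Number of 100-kb windows (vertical axis) with each line count from 0 to 40 (horizontal axis). Silent windows, under 15 lines, are red and the dashed line is the limit. 44 windows held 10 to 14 lines and 36 held 15 to 19, so no gap in the counts separates the silent windows from the rest.

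The limit of 15 lines cut through a continuous distribution, as the histogram of lines per window shows. Just outside it, 36 windows held 15 to 19 lines and 81 held 20 to 29. With lines taken as independent, a count of 7 lines has an exact Poisson 95% interval of 2.81 to 14.4. On that footing the 95 silent windows with at most 7 lines stayed under the limit. Outside the rule, 73 windows of 15 to 23 lines had intervals that reached under 15. Most lines come with their mate, so intervals by read pairs are wider. By pairs, fewer silent windows would stay under the limit and more other windows would reach under it. Of the windows over the limit, 411 held under 150 lines and are called low below, 356 held 150 or more and under 1500 and are called intermediate, and 927 held 1500 or more and are called well transcribed.

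Most silent windows had no silent neighbour. They formed 124 runs of neighbouring windows, of which 101 were single windows, 18 had 2 windows, 4 had 3 and 1 had 4. Single windows made up 66.0% of the members. The share that independent placing would give was not computed, so this value does not show an even spread. No run reached 5 windows, and the share of silent windows in runs of at least 10 windows was 0 (0 of 153, interval up to 2.38%). Long silent runs along the chromosomes were thus not found by this rule, which gave silent intervals of at most 400 kb. The last window of 2 sequences was incomplete and counted as silent on little sequence, 551 nt with 2 lines on CM019041.1 and 21900 nt with 8 lines on CM019044.1. Neighbouring runs on a sequence were separated by a median of 7.50 windows and at most by 74.

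The 4 long sequences all held silent windows, at shares whose intervals all overlapped. CM019042.1, read up to 48028643, had 54 silent windows of 481 (11.2%, 8.55% to 14.4%) in 39 runs, 29 of them single. CM019044.1, read up to 45021900, had 36 of 451 (7.98%, 5.65% to 10.9%) in 33 runs, 30 of them single. CM019041.1, read up to 41200551, had 32 of 413 (7.75%, 5.36% to 10.8%) in 27 runs, 22 of them single. CM019043.1, read up to 48726683, had 31 of 488 (6.35%, 4.36% to 8.90%) in 25 runs, 20 of them single. The short sequence CM019045.1 had none among its 14 windows, which allows up to 23.2%.

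The sequence with most silent windows also had the lowest typical level. CM019042.1 had a median of 277 lines per window, against 1120 on CM019041.1, 1850 on CM019044.1 and 4347 on CM019043.1. The silent windows themselves had much the same depth on each, with medians of 7 lines on CM019041.1, 6 on CM019042.1, 7 on CM019043.1 and 6 on CM019044.1. CM019043.1 held the most windows without any line, 6 of its 31. There were 2 such windows on CM019041.1, 1 on CM019042.1 and 2 on CM019044.1.

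The longest run lay on CM019042.1:10800001-11200000, at 22.9% of the sequence. Its 4 windows held 12, 4, 4 and 4 lines. It was bordered by a window of 800 lines on its left and a window of 40 lines on its right. Directly after that window came a run of 3, CM019042.1:11300001-11600000, with 6, 8 and 4 lines and a further low window of 36 lines beyond it. These 2 runs belong to the densest megabase of the CM sequences by this measure, CM019042.1:10800001-11800000, in which 8 of 10 windows were silent. On the other 3 long sequences the densest megabase held 4.

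The other runs of 3 windows were alike in length and differed in what bordered them. CM019042.1:3300001-3600000 held 4, 2 and 2 lines between windows of 34 and 1571 lines. CM019043.1:1500001-1800000 held 3, 0 and 8 lines between windows of 292 and 2293 lines. CM019042.1:14200001-14500000 held 1, 4 and 14 lines between windows of 11058 and 162 lines. Counted by window, the last run thus went from 11058 lines to 1 line at its left edge. The drop itself lay inside the left window and not at that edge. The stretch CM019042.1:14117501-14505000, which begins in the left window and covers the run, held 24 lines in all.

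The named runs of 2 windows differed in what bordered them, and 3 of the 6 lay between well transcribed windows. CM019042.1:16200001-16400000 held 1 line in each window, between windows of 10476 and 1363 lines. CM019042.1:40900001-41100000 held 1 and 2 lines, between 3789 and 2131. CM019041.1:10500001-10700000 held 2 and 3 lines, between 3418 and 3203, and is 1 of 5 runs that share the greatest length on that sequence. CM019042.1:45000001-45200000 held 2 and 5 lines, next to a window of 36634 lines on 1 side and 2300 on the other. By contrast, CM019043.1:32400001-32600000, with 8 and 0 lines, lay between low windows of 26 and 32 lines. CM019044.1 had 3 runs of 2 windows and none longer, and the one with fewest lines, CM019044.1:4200001-4400000, held 7 and 2 lines between windows of 28 and 24963.

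The single window with the strongest transcription on both sides had no line at all. It was CM019041.1:6100001-6200000, and its neighbours held 26511 and 10687 lines. It has the highest lower neighbour of all runs and was picked out for that after its values were seen.

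Silent windows were found in outer and central parts of the 4 long sequences, and the plot of window level along each sequence shows them among windows of very different levels. In successive bins of 10% of the length, with the 5 sequences pooled, the silent share was 13.6%, 5.98%, 13.5%, 5.98%, 4.32%, 4.37%, 5.41%, 9.19%, 10.9% and 9.57%. It was lowest in the fifth and the sixth bin. The pooled shares mix unlike sequences. Of the 25 silent windows of the third bin, 16 lay on CM019042.1 and 0 on CM019043.1. The outermost bins at both ends together held 43 silent windows, 28.1% of all members, and 11.6% (8.49% to 15.3%) of the windows there were silent.

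Low windows had another distribution. Their share was between 6.38% and 14.7% in the first 4 and last 2 bins, but 44.3%, 45.9%, 43.8% and 28.6% in the fifth to the eighth bin. Median window level fell from 334 CPM in the fourth bin to 14.2 CPM in the fifth and 9.87 CPM in the sixth, and was 382 CPM in the last. Between 40% and 80% of the length, 43 of 738 windows were silent (5.83%, 4.25% to 7.77%) and 300 were low (40.7%). Elsewhere 110 of 1109 were silent (9.92%, 8.22% to 11.8%) and 111 were low (10%). By the rule as given, the weakly transcribed central stretch therefore had a lower share of silent windows than the rest.

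**Figure D2:**
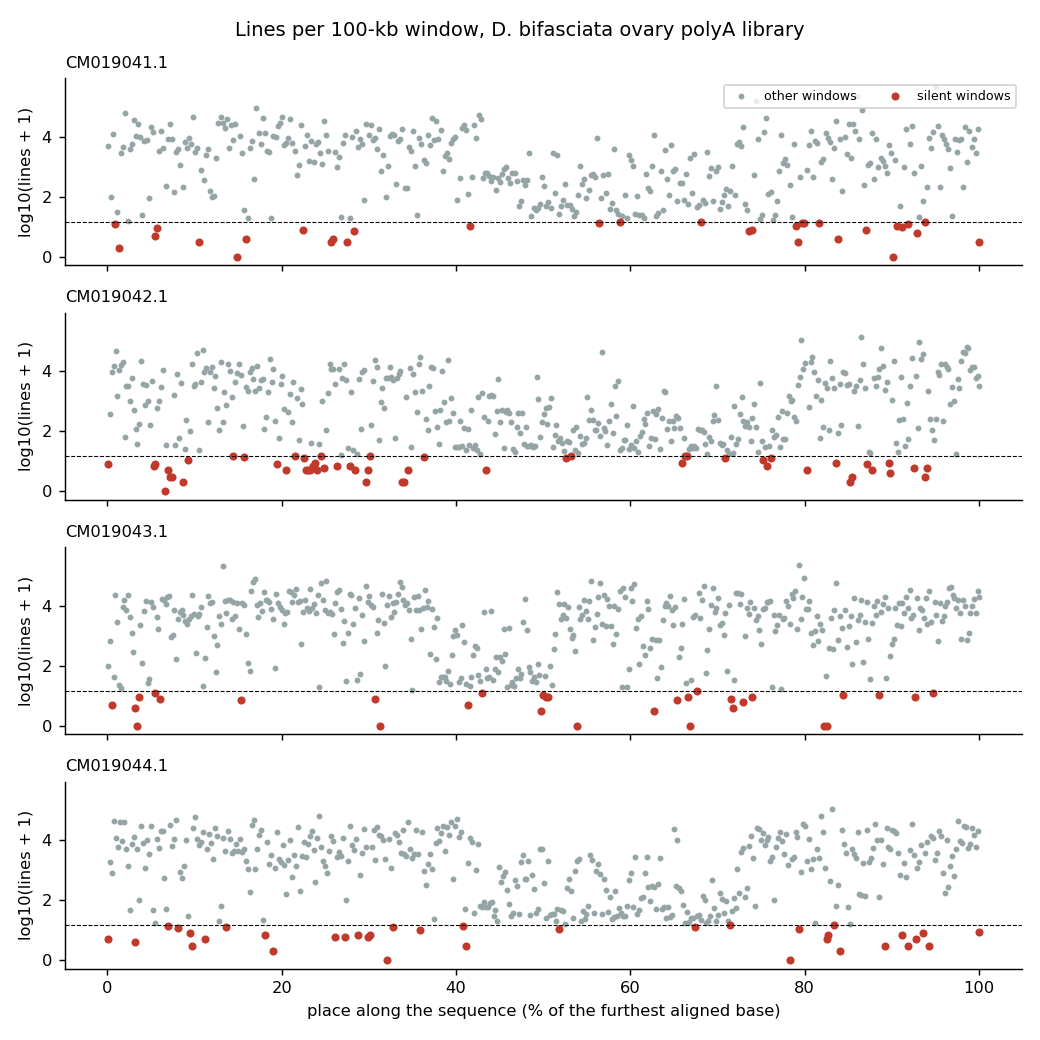
Lines per 100-kb window as log10(lines + 1) (vertical axis) against place in percent of the furthest aligned base (horizontal axis), for the 4 long CM sequences of D. bifasciata. Silent windows are red, other windows grey, and the dashed line marks 15 lines. Red points occur in outer and central parts of each sequence, with stretches of 60 to 74 windows without any, while many grey points of the central stretch lie just over the line.

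The silent windows of the central stretch were also fuller. Between 40% and 80% of the length their median was 10 lines (middle 50% 5.5 to 12, 43 windows), against 5 (2.25 to 8, 110 windows) elsewhere. No line was seen in 3 of the 43 and in 8 of the 110. The order was not the same on all sequences. The silent share was lower in the central stretch on CM019041.1 (6.06% against 8.87%), CM019042.1 (5.21% against 15.2%) and CM019044.1 (3.89% against 10.7%), and higher on CM019043.1 (8.21% against 5.12%), where the stretch of low windows was shorter.

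This order changed with the lines that were counted. In low windows of the central stretch, 52.0% of 16169 lines had under 50 aligned nt, with a median of 36.0 nt. In low windows elsewhere that share was 17.0% of 6463 lines and the median was 115 nt. When only lines of at least 50 aligned nt without an alignment gap over 20 kb were counted, a choice made after seeing the data, 363 windows (19.7%) held under 15. They included, by construction, all 153 silent windows and 210 more, of which 181 lay between 40% and 80% of the length. The share became 30.4% (27.1% to 33.8%) in the central stretch and 12.5% (10.6% to 14.6%) elsewhere. It was then higher in the central stretch on each of the 4 long sequences, with 27.3% against 10.1% on CM019041.1, 34.9% against 19% on CM019042.1, 22.1% against 8.53% on CM019043.1 and 38.3% against 12.5% on CM019044.1. The length filter alone gave 28.5% against 11.9%, while the gap filter alone gave 6.78% against 11%. Both filters together kept 44.4% of the lines of low windows in the central stretch and 77.0% elsewhere, while the limit stayed at 15. Kind of line and height of the limit were thus not told apart. Whether the short lines are correctly placed was not tested.

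**Figure D3:**
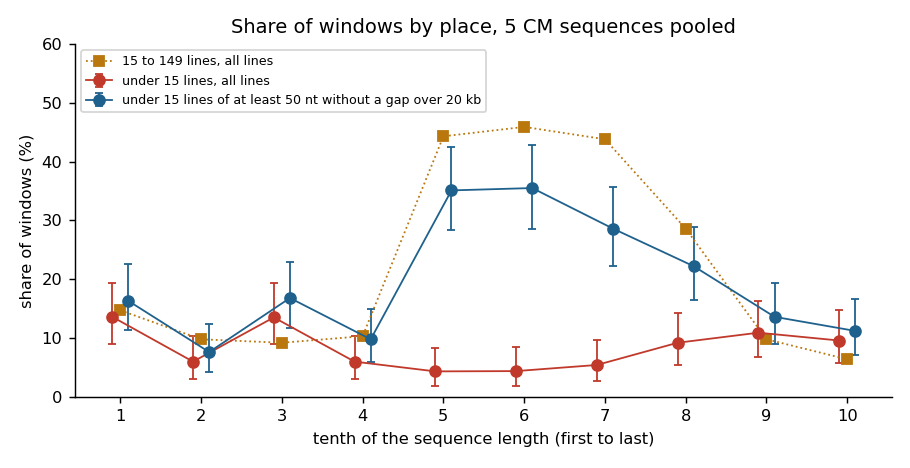
Share of 100-kb windows in percent (vertical axis) in each bin of 10% of the sequence length (horizontal axis), with the 5 CM sequences pooled. Points with bars are shares with exact 95% intervals for windows under 15 lines, counting all lines (red) or only lines of at least 50 nt without a gap over 20 kb (blue), and squares are low windows of 15 or more and under 150 lines. In the fifth bin the red share is 4.32% and the blue share 35.1%.

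Stretches free of silent windows lay in both kinds of surroundings. The longest on CM019041.1 was 17200001-23200000 (60 windows), on CM019042.1 25600001-31600000 (60 windows), on CM019043.1 7500001-14900000 (74 windows) and on CM019044.1 23400001-30300000 (69 windows). Those of CM019041.1, CM019042.1 and CM019044.1 lay in the central stretch of weak transcription, and that of CM019043.1 in its well transcribed early part.

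Surroundings were described by the median level of the 10 windows on each side. For silent windows this had a median of 186 CPM (middle 50% 24.8 to 346), close to the 204 CPM (14.8 to 378) for all windows. For low windows it was 10 CPM (4.83 to 77.1). Surroundings of 1500 or more lines were found for 62.7% of silent windows (96), 24.3% of low windows (100) and 59.8% of all windows. Surroundings under 150 lines were found for 21.6% of silent windows (33), 50.9% of low windows (209) and 21.7% of all windows. Silent windows thus had surroundings of about the level of windows in general, whereas low windows lay among other weakly transcribed windows.

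The window beside a run was well transcribed in many cases and low in others. The runs had 244 edges with a window outside, and over these edges the adjoining window had a median of 1307 lines. It held 1500 lines or more at 118 edges (48.4%) and was low at 75 (30.7%). A window between 2 runs is counted at both of its edges here, and there were 229 distinct windows next to a run. Of all windows that were not silent, 927 held 1500 lines or more, 356 were intermediate and 411 were low. Their median was 2296 lines. Windows beside a run were thus less often well transcribed and more often low than these. Of the 120 runs with a window on each side, 33 had 1500 lines or more on both and 20 had under 150 on both. No matching share for windows in general was computed for these 2 counts. A window beside a run cannot be silent by construction, so the step itself is part of the rule.

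In finer bins, pooled over all edges, the change in level was spread over several bins. The edges lie on the fixed 100-kb grid and not where transcription begins. Sharp changes at differing distances from the grid would give the same pooled spread, so the profile cannot show how steep single borders were. In bins of 10 kb, between 73.1% and 78.9% of the bins in the outer 100 kb of the runs held no line. In the bin just outside the edge, 51.2% of 244 bins were without a line. This share was 45.5% at 10 to 20 kb, 41% at 20 to 30 kb, 38.1% at 30 to 40 kb and 27.0% at 70 to 80 kb, and 29.5% at 290 to 300 kb. Bins of 150 lines or more rose over the same distance from 7.38% at 0 to 10 kb to 29.9% at 70 to 80 kb and 30.8% at 100 to 110 kb.

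**Figure D4:**
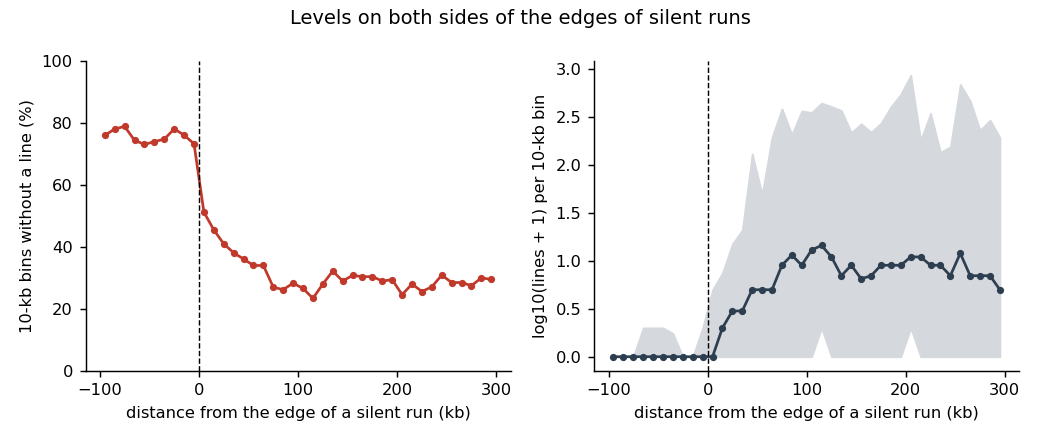
Levels against distance in kb from the edge of a silent run (horizontal axes; negative values lie inside the run, dashed line at the edge) in bins of 10 kb over 242 to 244 edges up to 100 kb and fewer beyond. Left, percent of bins without a line; right, median log10(lines + 1) per bin with the middle 50% shaded. The share without a line falls from 73.3% in the last bin inside to 51.2% just outside and 27.0% at 70 to 80 kb. Edges lie on the 100-kb grid, so pooling them spreads the change.

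Over longer distances the pooled level did not keep rising. Windows next to a run had a median of 113 CPM (7.51 to 515, 229 windows), and windows at a distance of 2 had 278 CPM (33.9 to 809, 181 windows). The median was then 244 CPM at 3 to 5 windows, 146 CPM at 6 to 10, 78.7 CPM at 11 to 20 and 57.1 CPM at over 20 windows. The share of low windows was 27.9% at a distance of 1, 19.9% at 2 and 32.1% at over 20. The classes also differed in place along the sequence. Between 40% and 80% of the length lay 63 of the 229 windows next to a run, 186 of 331 at 11 to 20 and 81 of 156 at over 20. Of all windows 738 of 1847 lay there. How far place accounts for the pooled order was not tested.

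With both parts of the sequences taken apart, the pooled level rose more clearly with distance outside the central stretch. There the median rose from 205 CPM next to a run (43.1 to 660, 166 windows) to 353 CPM at a distance of 2, 387 CPM at 3 to 5 and 409 CPM at 6 to 10, was 323 CPM at 11 to 20, and reached 602 CPM (394 to 1122, 75 windows) at over 20 windows. In the central stretch the median was 6.87 CPM next to a run (2.43 to 90.1, 63 windows), between 20.7 and 35.3 CPM at distances of 2 to 20, and 6.65 CPM (2.72 to 23.3, 81 windows) at over 20 windows. This division was made after the data had been seen, and neighbouring classes overlapped widely in their middle 50%. The sequences were pooled in it. Outside the central stretch, windows at over 20 windows lay mostly on CM019043.1, in large part in its 74 windows at 7500001-14900000. That sequence had the highest median level of the 4 long sequences, 4347 lines per window. How far sequence accounts for the rise was not tested.

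Median intron length changed little with distance from the runs. Introns were alignment gaps of at least 40 nt with at least 3 read pairs, placed by their 5′ splice end, and 29529 were found with a median of 73.0 nt. Their median was 73.0 nt in windows next to a run (3115 introns), 72.0 nt at a distance of 2, 73.0 nt at 3 to 5 and at 6 to 10, 74.0 nt at 11 to 20 and 75 nt at over 20 windows (2509 introns). Introns over 20 kb made up 3.31% next to a run, 2.57% at a distance of 2 and 5.26% at over 20 windows. With flanking blocks of at least 20 nt, these shares were 1.26%, 0.974% and 2.43%.

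Intron length followed the level of the window. The median was 73.0 nt in windows of 1500 or more lines (27677 introns), 246 nt in intermediate windows (1640) and 5714 nt in low windows (202). With flanking blocks of at least 20 nt on both sides, the medians were 72.0, 193 and 2052 nt. Silent windows held the start of 10 introns with a median of 109044 nt. Of these 10, only 1 had a flanking block of at least 20 nt, and it was 29443 nt long. With fewer lines in a window fewer introns reach 3 pairs, and this was not equalised between classes.

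Some silent windows lay wholly inside an alignment gap that would make them intronic. By gaps with at least 3 read pairs this held for 42 silent windows, which is 27.5% (20.6% to 35.2%) of them. The background over all windows was 27.9% (516 of 1847), so this share was near that of any window. When the flanking blocks had to be at least 20 nt, 2 silent windows remained inside a gap (1.31%, 0.159% to 4.64%) against 2.65% of all windows (49 of 1847).

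The introns that touched silent windows were long and thinly anchored. There were 73 with at least 3 read pairs, and 72 of them spanned over 20 kb. Only 4 had a flanking block of at least 20 nt, 3 of them over 20 kb. Over all 29529 introns, 1137 were over 20 kb, and 497 of those 1137 had such a block. A longer gap touches more windows by construction. The longest was CM019042.1:39596109-40237912 on the plus strand, 642 kb with 4 read pairs, in which the shorter flanking block was at most 13 nt. CM019042.1:40895428-41523961 on the minus strand spanned 629 kb with 3 pairs and a block of 13 nt, and it crosses the run at 40900001-41100000. CM019042.1:8991773-9613431 on the plus strand spanned 622 kb with 3 pairs and a block of 16 nt. CM019044.1:13261170-13878285 on the plus strand spanned 617 kb with 3 pairs and a block of 15 nt. CM019043.1:2521938-3099032 on the minus strand spanned 577 kb with 3 pairs and a block of 12 nt. Whether such gaps are introns was not tested.

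Most of the few lines inside silent windows were either spliced over very long gaps or short. In silent windows 36.2% of lines (33.2% to 39.3%) had a gap, against 13.0% in low windows, 18.1% in intermediate windows and 19.3% in windows of 1500 or more. The median gap in silent windows was 164266 nt, against 19485, 140 and 79.0 nt in the other classes in that order. Of 413 gaps in silent windows, 352 (85.2%, 81.4% to 88.5%) were over 20 kb, 24 were over 1 kb and up to 20 kb, and 37 were of 40 nt up to 1 kb. The longest spanned 1018 kb. In windows of 1500 or more lines only 0.627% of gaps were over 20 kb. The shorter flanking block had a median of 11 nt in silent windows, 23.0 nt in low windows and 35.0 nt in windows of 1500 or more lines. It was under 20 nt for 89.3% of the gaps in silent windows and 44.2% in low windows. In intermediate windows this share was 19.8%, and in windows of 1500 or more lines 21.7%.

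Short lines were the other frequent kind. In silent windows 49.0% of lines (485; 45.9% to 52.2%) had under 50 aligned nt. This share was 42.0% in low windows, 9.87% in intermediate windows and 3.66% in those of 1500 or more. Among unspliced lines, the median aligned length was 32.0 nt in silent windows, 83.0 nt in low windows and 120 nt in windows of 1500 or more lines. Both kinds were unevenly placed. Short lines made up 69.0% (63.9% to 73.7%) of the 361 lines of silent windows in the central stretch and 37.6% (33.8% to 41.5%) of the 628 lines elsewhere. Lines with a gap over 20 kb made up 11.6% (8.51% to 15.4%) in the central stretch and 45.9% (41.9% to 49.8%) elsewhere.

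**Figure D5:**
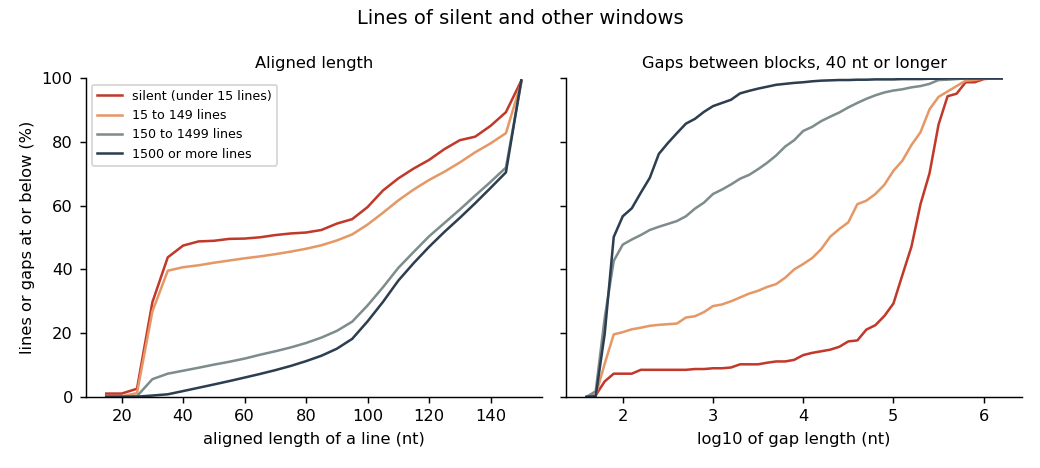
Cumulative share in percent (vertical axes) of lines by aligned length in nt (left) and of gaps of 40 nt or longer by log10 of their length in nt (right), for silent windows (red), low windows (orange) and intermediate windows (grey) and windows of 1500 or more lines (dark). In silent windows 49.0% of lines are under 50 nt and 85.2% of gaps over 20 kb. These shares are 42.0% and 49.7% in low windows and 3.66% and 0.627% in the windows of 1500 or more lines.

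Lines of neither kind, with at least 50 aligned nt and no gap over 20 kb, numbered 273 in silent windows (27.6%, 24.8% to 30.5%), from 145 read pairs. They made up 53.7% of the lines in low windows and 96.2% in windows of 1500 or more. At least 1 such line was found in 65 silent windows. The other 88 had none, and 77 of these held lines of the short or long-gapped kinds only.

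Lines were split about evenly between strands, with 48.6% (45.5% to 51.8%) on the plus strand, 481 of 989. In 32.8% of the lines (324) the alignment reached beyond the window. In 118 pairs 1 mate began in a silent window and the other outside. Mates of a pair had the same coordinates in 67.8% of cases, which is the case for fragments no longer than the read. This share was 54.7% in low windows, 31.0% in intermediate windows and 26.6% in windows of 1500 or more lines. Lines were spread thinly, with a median of 3 of the 200 tiles of 0.5 kb in a silent window holding any line and at most 8.

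Grouped by place, with lines of 1 strand less than 1 kb apart joined, the lines came from 412 places, of which 316 had a single read pair. Only 30 places had 3 pairs or more, with 20.4% of the lines. In 9 of these places every line was spliced over more than 20 kb. Another 18 had no spliced line, and of these 9 held only lines of at least 50 nt and 9 only lines under 50 nt.

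The place with most pairs held only unspliced lines of at least 50 nt. It lay at CM019044.1:18399370-18399574 on the minus strand, with 12 lines from 6 pairs, all unspliced and of 104 to 134 aligned nt. The next, CM019043.1:32956729-32957158 on the minus strand, had 10 lines from 5 pairs, also unspliced, of 106 to 141 nt. CM019043.1:41119651-41119683 on the plus strand had 10 lines from 5 pairs, all of 32 nt. At CM019044.1:14757361-14921734 on the plus strand all 10 lines from 5 pairs shared a gap of 164266 nt with a shorter block of 10 nt. At CM019043.1:2697300-2810984 on the plus strand 7 lines from 5 pairs shared a gap of 113540 nt with a shorter block of 8 nt. The 5 leading places thus held 2 with local unspliced reads, 1 with short reads and 2 with long gaps.

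Stretches without a transcribed tile were also measured, a tile being transcribed with at least 7 lines per 0.5 kb (1 RPKM). Their ends do not depend on the 100-kb grid, but their division below by silent windows does. There were 342 such stretches of at least 100 kb, 60.9 Mb in all. Of these, 112 held at least 1 whole silent window, and 143 of the 153 silent windows lay inside them. Their median length was 193 kb (158 to 266). The longest, CM019042.1:35983501-36610500, spanned 627.0 kb and held 3 silent windows. A further 223 stretches touched no silent window, with a median of 136 kb (114 to 177) and a maximum of 440.0 kb. A window under 15 lines can hold few transcribed tiles, and a longer stretch holds a whole window of the grid more readily. The count of 143 and the difference in length thus follow largely from the rule. Of the stretches that held a silent window 30 of 112 were centred between 40% and 80% of the length, against 139 of the 223 that touched none.

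Set beside other sequences, with only complete windows counted, the CM sequences of D. bifasciata had 151 silent of 1842 (8.20%, 6.99% to 9.55%). The other D. bifasciata sequences of at least 100 kb had 1 of 24 (4.17%, 0.105% to 21.1%). Contigs of at least 1 Mb had 52 silent of 1083 (4.80%, 3.61% to 6.25%) in D. pseudoobscura and 74 of 997 (7.42%, 5.87% to 9.23%) in D. eugracilis, where 15 lines were 1.06 and 1.15 CPM. Species, assembly and library cannot be told apart with 1 library each, and no difference was tested.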

How the data were processed

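PolyA-selected ovary RNA was sequenced with a directional protocol and both ends of each fragment were read. Per the labels and the study's methods, the authors trimmed adapters with the FASTX-Toolkit, aligned them with STAR (version 2.7.3a; at most 3 mismatches) and kept genome-unique mappers. SAMtools 1.10 and bedtools 2.28.0 are also named in the submitters' processing notes. The deposited files hold 1 line per aligned mate. Column 5 of the deposited files, the mapping score, has the same value in every line and was not used. Lines were counted in Python 3.11.15, numpy 2.4.6, pandas 2.3.3 and scipy 1.17.1 (figures, matplotlib 3.10.9). CPM is lines per 1000000 genome-unique mappers. The counting code was tested on simulated data, in which windows were made silent by line count, so that recovery checks the code and not the rule.

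The windows and tests were chosen with earlier results of these data known. Regions named are the longest run of each sequence, the 10 longest runs (ties by fewest lines), the 5 places with most pairs and the 5 longest touching introns. Borders had been planned for runs of at least 5 windows. None existed, so runs of any length were used. The QuantSeq library was not used. Sequences of the regions were not analysed here.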

Additional observations from a re-analysis of the deposited data

How the results depend on the processing

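The number of silent windows, 153, became 61 under 5 lines, 270 under 30 lines, 11 with no line, 265 with distinct alignments and 363 with lines of at least 50 nt without a gap over 20 kb. As length, with every window counted in full, 15.3 Mb became 27.8 Mb in 50-kb windows under 8 lines and 5.0 Mb in 200-kb windows under 30 lines. The longest run, 4 windows, became 1 with no line, 7 with distinct alignments, 10 with the filtered lines and 12 when runs were joined across 1 window. The share in runs of at least 10 windows, 0, became 5.51% with the filtered lines and 5.88% with joined runs. The share of members in the outer 10% at each end, 28.1%, became 48.4% for the outer 20% and 20.4% under 30 lines. The spliced share, 36.2%, became 42.1% of pairs, 39.7% of distinct alignments, 41.3% with 1 line per tile and strand, 6.17% with gaps of 40 nt to 20 kb and 5.11% for lines wholly in the window. The share inside a gap, 27.5%, became 77.1% with 1 pair (82% of all windows), 3.92% with 10 pairs (4.17%) and 1.31% with flanking blocks of at least 20 nt (2.65%). Fewer lines, pairs or windows pass the stricter of these settings by construction, and beyond that the cause was not tested. The median level next to runs, 113 CPM, was between 78.7 and 153 CPM and stayed under that of all farther windows pooled (171 CPM for the reported value) in each of the 5 alternatives. The reported value was above the medians at 11 to 20 and at over 20 windows, 78.7 and 57.1 CPM. The filtered lines and flanking blocks were chosen after seeing the data. Borders at runs of at least 5 or 10 windows gave no value, since none existed. No paired analysis was possible because each group had 1 library. At this depth a window without a line may still have had a level of up to 0.215 CPM with lines taken as independent, and more by read pairs.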
